A study of Drosophila melanogaster with 3 samples.

Results

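Nuclear pores are large protein channels in the nuclear envelope, built from proteins called nucleoporins that are arranged in rings, a central channel, a cytoplasmic face and a nuclear basket. Cargo passes through them bound to soluble receptors of the karyopherin family, the importins and exportins, which load and unload according to the state of the small GTPase Ran. The guanine nucleotide exchange factor Rcc1 on chromatin keeps nuclear Ran bound to GTP, and RanGAP in the cytoplasm triggers GTP hydrolysis. In the early fly embryo, maternal stores of these proteins serve the rapid nuclear divisions, and the genes are also needed in every later tissue.

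The genes described here are the protein-coding genes whose symbols begin with Nup and a digit, together with named genes of the membrane ring, the Ran cycle, import, export and mRNA export. They number 37 of the 13945 protein-coding genes on the 6 chromosome arms examined. One symbol of the rule, Mtor, is absent from the annotation. Megator, the large coiled-coil protein of the nuclear basket, is listed there as Mgtor and was kept outside the counts.

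Binding of the product of CG2116, a gene of Drosophila melanogaster, was mapped by chromatin immunoprecipitation and sequencing (ChIP-seq) with an antibody against GFP. The material was whole embryos of both sexes, 0 to 24 h old, of a transgenic line that carries CG2116 with GFP at the C terminus of its product. All 3 libraries, numbered 1, 2 and 4 in the labels, belong to this single group, so no condition was compared with another, and the replicate spread may be in part technical. Neither the element that drives the transgene nor the state of the endogenous CG2116 gene is stated in the labels. Cell types of the embryo cannot be told apart in these lists, and no list from an untagged line was analysed here. Peaks that an antibody against GFP gives at open starts without the fusion protein can thus not be told apart from binding of the CG2116 product, and "bound" below means only that a peak was listed. The relaxed lists of candidate peaks, 1 per library and 1 from pooled replicates, have 30000 entries each, and 7137 peaks passed the irreproducible discovery rate (IDR) filter, which keeps peaks that rank alike in replicates. The lists give no sequencing depth, so the counting precision behind each peak is unknown.

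A gene was counted as bound when the summit of an IDR peak lay within 500 bp of one of its transcription start sites (TSSs). Nearly all nuclear pore and transport genes were bound, 33 of 37 (89.2%), where 42.6% of all protein-coding genes were. Their peaks were mostly of ordinary strength, and 4 genes stood far above: emb, the fly CRM1 exportin, Rcc1, Kap-alpha3, an importin alpha, and Nup205, a scaffold protein of the inner ring. Their signal was between 35.9 and 49.6 times that of the median IDR peak. The 4 genes without an IDR summit, mbo, Nup93-2, Ran and Nup154, each had weaker summits in the relaxed lists.

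Relative signal at an IDR summit was computed in each replicate from its summit closest to the IDR summit, at most 100 bp away. The signal of that summit was divided by the median of all IDR peaks matched in this way in the same replicate. Those medians were 77.8 in replicate 1, 99.0 in replicate 2 and 132.8 in replicate 4, in the peak caller's own units. A value of 1 is therefore the strength of a typical IDR peak. Where a gene had several IDR summits in its window, the strongest was used. For a gene without an IDR summit, the strongest summit of each replicate within 500 bp of any TSS was divided by the same median. That choice of the strongest can raise its values relative to those of bound genes.

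The DNA under the strongest summits is shown first, because the signal at these 6 genes is what sets the upper end of the group. Each sequence is the dm6 reference from the RefSeq copy of the assembly, 5′ to 3′ on the strand of the gene, and covers at most 60 bp on each side of the summit. The stretches stop before the TSS of the gene and before exons of protein-coding neighbours. For Rcc1 only 29 bases are given, since its summit lies in the first exon of a transcript that starts further upstream. These 29 bases are centred on the CCCTG nearest to the summit and do not include the summit itself. Capitals mark the 5-mer CCCTG or its complement CAGGG, or, for Nup37, a match to GCAACNCT.
emb (chr2L:8403465-8403572, plus strand): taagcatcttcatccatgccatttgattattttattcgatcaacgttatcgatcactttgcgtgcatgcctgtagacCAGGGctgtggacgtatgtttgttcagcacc
Rcc1 (chr3L:5932627-5932655, minus strand): gcgcagaagcgaCCCTGaaattggagtgt
Kap-alpha3 (chr3R:9577738-9577858, minus strand): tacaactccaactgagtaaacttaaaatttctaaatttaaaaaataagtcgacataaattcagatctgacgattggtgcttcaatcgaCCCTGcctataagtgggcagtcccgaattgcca
Nup205 (chrX:19852068-19852188, plus strand): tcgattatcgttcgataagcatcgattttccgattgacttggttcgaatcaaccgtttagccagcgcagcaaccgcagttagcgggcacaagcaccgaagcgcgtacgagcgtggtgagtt
msk (chr3L:8116053-8116173, plus strand): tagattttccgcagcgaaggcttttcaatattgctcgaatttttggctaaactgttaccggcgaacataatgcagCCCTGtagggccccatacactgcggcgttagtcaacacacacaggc
Nup37 (chr3R:25247515-25247587, plus strand): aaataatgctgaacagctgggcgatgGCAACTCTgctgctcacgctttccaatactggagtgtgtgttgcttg

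The Ensembl identifiers are FBgn0020497 for emb, FBgn0002638 for Rcc1, FBgn0027338 for Kap-alpha3, FBgn0031078 for Nup205, FBgn0026252 for msk and FBgn0039301 for Nup37. In the printed stretches the CCCTG match is centred 19 bp downstream of the summit at emb, 20 bp at Rcc1, 30 bp at Kap-alpha3 and 17 bp at msk, counted along the gene. Nup205 has no match to it. The 5-mer was picked out after these sequences had been seen, so its presence in them is a description. At Rcc1 the printed stretch was placed around the 5-mer, so its presence there was fixed by that choice.

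Export receptors carry cargo out of the nucleus together with Ran-GTP. The gene emb encodes the receptor for leucine-rich export signals, and its relative signal was 53.4 in replicate 1, 47.0 in replicate 2 and 48.5 in replicate 4, a mean of 49.6 ± 3.32 (SD, n = 3). This was the highest value of the group, and its lowest replicate lay above the highest replicate of every other gene of the group. Its peak ranked 21 of 7137 by pooled signal, with the summit 48 bp upstream of the only annotated TSS. Cse1, the exportin that returns importin alpha to the cytoplasm, lay far lower, with a mean of 0.641 ± 0.0788 (SD, n = 3) and a summit 210 bp inside the gene, the most downstream summit of the group.

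In the Ran cycle, Rcc1 measured 42.0, 40.6 and 33.0 in replicates 1, 2 and 4, a mean of 38.5 ± 4.81 (SD, n = 3) and rank 50. Its summit lay 49 bp upstream of the inner of 2 annotated TSSs, and no other protein-coding gene starts within 500 bp of the summit. RanGAP measured 2.70, 2.55 and 2.73, a mean of 2.66 ± 0.0974 (SD, n = 3), and its summit lay 135 bp upstream of an internal TSS rather than at the outermost one. The replicates of Rcc1 and RanGAP did not overlap. Ran itself had no IDR summit: the strongest summits in its window measured 0.369, 0.409 and 0.569 in the 3 replicates.

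All 6 import receptors and adaptors were bound (all genes 42.6%), over a wide span of strength. Kap-alpha3, one of 3 importin alpha genes here with Kap-alpha1 and Pen, measured 41.3, 39.4 and 32.9, a mean of 37.9 ± 4.40 (SD, n = 3) and rank 53. The other two were at the level of a typical IDR peak, Kap-alpha1 at 0.915 ± 0.133 and Pen, also known as Pendulin, at 1.10 ± 0.155 (SD, n = 3 each). So the importin alpha genes did not share a level, and the replicates of Kap-alpha3 lay above all those of Kap-alpha1 and Pen.

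The gene msk encodes moleskin, the fly importin 7, and measured 9.43, 7.59 and 7.62, a mean of 8.22 ± 1.05 (SD, n = 3) and rank 238. It was the only gene of the group between 5 and 35 times the typical peak. Tnpo, the transportin that imports many RNA-binding proteins, measured 1.57, 1.85 and 1.34, a mean of 1.59 ± 0.254 (SD, n = 3). Fs(2)Ket, the importin beta gene, had a summit 95 bp inside the gene at 1.16 ± 0.0979 (SD, n = 2), with no matched summit in replicate 4.

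For mRNA export, sbr encodes the receptor NXF1 and Nxt1 its partner. The strongest IDR summit of sbr was matched in replicates 2 and 4, at 2.64 and 1.80, a mean of 2.22 ± 0.598 (SD, n = 2), and a second one was held by all 3 replicates with a mean of 2.03. Nxt1 was matched in replicates 1 and 4, at 0.528 and 0.463, a mean of 0.496 ± 0.0463 (SD, n = 2). Both genes were bound, sbr clearly above Nxt1, yet neither had its strongest summit held by all 3 replicates, where held means that a replicate has one of its 7137 strongest summits within 100 bp.

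**Figure D1:**
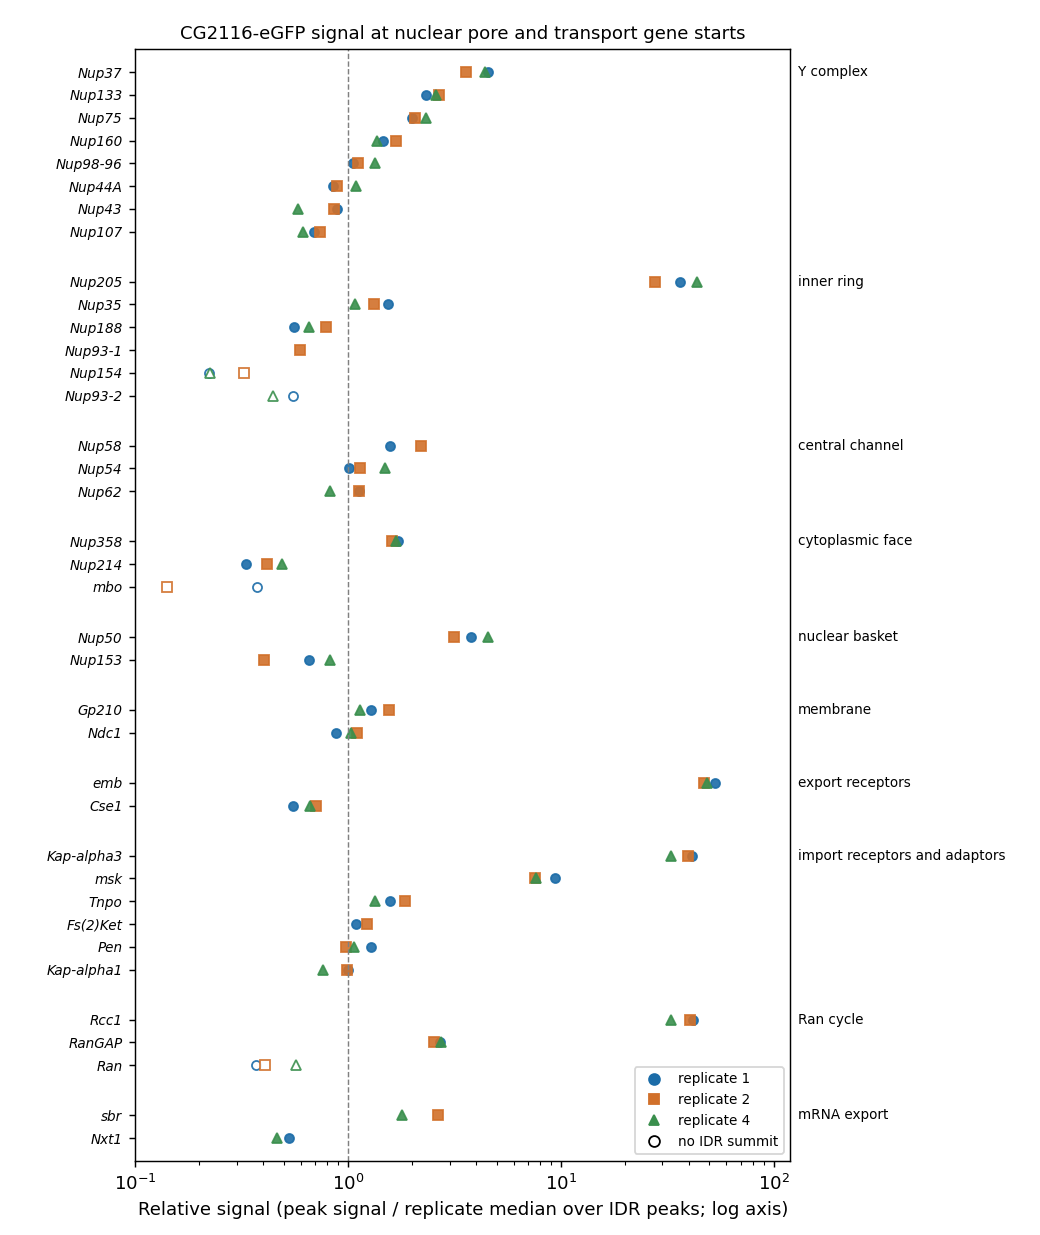
Relative signal (log axis) of the 37 nuclear pore and transport genes, grouped by role, with 1 marker for each replicate summit used. Filled markers are genes with an IDR summit at a TSS, with replicate summits matched to it. Open markers are the 4 genes without one, at the strongest replicate summit in the window. The dashed line at 1 is the typical IDR peak. emb, Rcc1, Kap-alpha3 and Nup205 stand apart at the right in every replicate.

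Among the pore proteins, the Y complex coats the pore on both sides. Its 8 genes in the group were all bound, beside 42.6% of all genes. All 8 were held by all 3 replicates, beside 34.0% of all genes. Sec13, outside the group and described below, was not bound. Nup37 led it with 4.54, 3.57 and 4.39, a mean of 4.17 ± 0.524 (SD, n = 3). Nup133 measured 2.33, 2.67 and 2.60, a mean of 2.53 ± 0.180, and Nup75 2.00, 2.08 and 2.32, a mean of 2.13 ± 0.172 (SD, n = 3 each). Nup37 exceeded both in every replicate, while the lowest replicate of Nup133 was only just above the highest of Nup75.

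Nup160 measured 1.46, 1.68 and 1.37, a mean of 1.50 ± 0.160 (SD, n = 3). The remaining genes of the Y complex were near or below a typical peak, with means of 1.17 for Nup98-96, whose product is cleaved into 2 nucleoporins, 0.944 for Nup44A, the fly Seh1, 0.779 for Nup43 and 0.682 for Nup107. Means of the complex therefore spanned 0.682 to 4.17, and none came near the strongest 4 genes of the group.

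The inner ring, which anchors the pore to the membrane, held both the strongest nucleoporin and 2 of the 4 unbound genes. Nup205 measured 36.3, 27.7 and 43.7, a mean of 35.9 ± 7.99 (SD, n = 3) and rank 56. Its replicates lay below those of emb. Nup205 was below Rcc1 and Kap-alpha3 in replicates 1 and 2 and above both in replicate 4, so its place beside them is not settled. Rcc1 was above Kap-alpha3 in each replicate, by small margins. Nup188, the related large scaffold protein, was much lower at 0.667 ± 0.114, and Nup35, whose vertebrate counterpart binds the membrane, was at 1.31 ± 0.232 (SD, n = 3 each).

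The strongest IDR summit of Nup93-1 was matched in replicate 2 alone, at 0.595, and it lay 432 bp upstream of the TSS, closer to the edge of the 500 bp window than the strongest summit of any other bound gene of the group. A second IDR summit of this gene, 227 bp upstream, was matched in all 3 replicates with a mean of 0.581. Nup93-2, its paralogue, had no IDR summit and measured 0.550 in replicate 1 and 0.443 in replicate 4, with no summit in the window in replicate 2. Nup154 had none either and measured 0.222, 0.326 and 0.225. Both of the latter were thus present in relaxed lists. The values of Nup93-2, the strongest in its window, were in the range of the weakest bound genes, and those of Nup154 were lower.

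Central channel nucleoporins carry the phenylalanine-glycine repeats that form the permeability barrier, and all 3 were bound (all genes 42.6%). Nup58 was matched in replicates 1 and 2, at 1.58 and 2.21, a mean of 1.89 ± 0.449 (SD, n = 2). Nup54 had a mean of 1.22 ± 0.250 and Nup62 of 1.02 ± 0.176 (SD, n = 3 each). On the cytoplasmic face, Nup358, known in vertebrates to hold SUMO-modified RanGAP, measured 1.72, 1.60 and 1.69, a mean of 1.67 ± 0.0599 (SD, n = 3) and the smallest spread of the group for its mean.

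Nup214, another protein of the cytoplasmic face, had the lowest mean relative signal of the bound genes at its strongest summit, with 0.331, 0.417 and 0.489, a mean of 0.412 ± 0.0788 (SD, n = 3). No replicate had one of its 7137 strongest summits there. A second IDR summit of the gene, slightly lower in pooled signal, had a mean of 0.592 and was held by 1 replicate. The gene mbo, which encodes the partner of Nup214 known as Nup88 in mammals, had no IDR summit, and measured 0.374 and 0.141 in replicates 1 and 2 with none in replicate 4. Both genes of this pair were thus at the low end.

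In the nuclear basket, Nup50 measured 3.77, 3.13 and 4.54, a mean of 3.82 ± 0.706 (SD, n = 3), with replicates that overlapped those of Nup37. Nup153 had a mean of 0.627 ± 0.209 (SD, n = 3), the largest relative spread of the group. A second IDR summit of Nup153 was close in pooled signal, 216.8 against 223.8, and had a mean of 0.921 with 2 replicates matched. Megator, outside the counts, was bound with 0.998, 1.07 and 1.14, a mean of 1.07 ± 0.0709 (SD, n = 3). The membrane proteins Gp210 and Ndc1 were both bound, at 1.33 ± 0.217 and 1.00 ± 0.118 (SD, n = 3 each). Of all pore proteins 21 of 24 (87.5%) were bound, and of the soluble transport and mRNA export factors 12 of 13 (92.3%), beside 42.6% of all genes.

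The IDR list cut the group at a pooled signal of 144.1, that of its weakest peak. Just inside lay Nxt1, with a pooled signal of 147.6, and Nup214, with 150.0. Just outside lay Ran with 118.5 and Nup93-2 with 100.9, followed by Nup154 with 61.7 and mbo with 41.9. The replicate values of Ran, each the strongest in its window, overlapped those of Nup214, which were matched to its IDR summit. Replicate values thus did not separate these genes, but the measures differ, so they cannot be compared closely.

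The other deposited lists come from the same 3 libraries, so their counts are no independent check of the IDR count. In the pooled relaxed list, 37 of 37 genes had a summit within 500 bp of a TSS, against 60.4% of all genes. The relaxed lists held 37 in replicate 1, 36 in replicate 2 and 36 in replicate 4, beside 59.2%, 58.5% and 60.3% of all genes. A stricter count took the genes whose strongest IDR summit was held by all 3 replicates. It was 26 of the 37 genes (70.3%), beside 34.0% of all genes. Among bound genes only, it was 26 of 33, beside 4736 of 5941, nearly the same share. The stricter count thus repeats the difference in the share of bound genes. In each of these lists the share of nuclear pore and transport genes was above that of all genes.

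**Figure D2:**
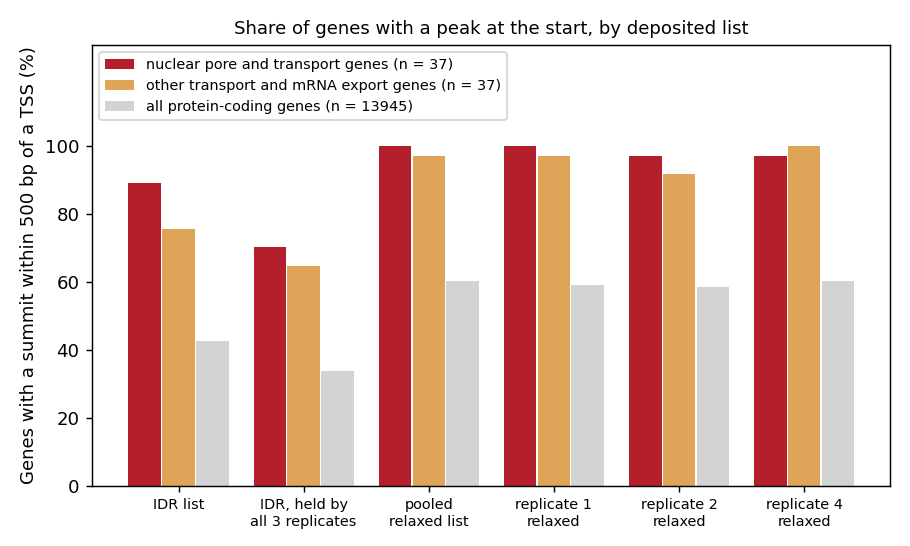
Share of genes (percent) with a peak summit within 500 bp of a TSS in each deposited list, for the 37 nuclear pore and transport genes, 37 further transport and mRNA export genes, and all 13945 protein-coding genes. In the IDR list the shares are 89.2%, 75.7% and 42.6%.

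A gene whose start lies near another gene can be counted through a peak of its neighbour, and a gene with many TSSs has a wider target. Among genes whose TSSs were all more than 1000 bp from those of other protein-coding genes, 6 of 7 were bound (85.7%), where 24.8% of all such genes were. The 6 were Cse1, Ndc1, Nup358, Nxt1, Pen and Rcc1, and the unbound one was mbo. Among genes with a closer neighbour 27 of 30 were bound (90.0%), where 66.2% of all such genes were. With 1 annotated TSS the count was 23 of 26 (88.5%, all genes 36.9%), and with several it was 10 of 11 (90.9%, all genes 58.4%). Within each of these classes the share of the group exceeded that of all genes. By chromosome arm, 7 of 8 genes were bound on 2L (all genes 40.2%), 9 of 9 on 2R (42.1%), 4 of 4 on 3L (41.9%), 8 of 10 on 3R (43.2%) and 5 of 6 on X (45.9%), while none of the genes lies on 4.

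Strength gave a different picture from presence. The median relative signal of the 33 bound genes was 1.31, with quartiles of 0.915 and 2.53. Over all 5941 bound protein-coding genes it was 1.33, with quartiles of 0.869 and 2.20. The typical bound gene of the group was thus as strong as the typical bound gene of the genome. The upper end differed: 4 of 33 (12.1%) were at 20 or more, as were 3.27% of all bound genes, and the same 4 had a peak among the 100 strongest of the IDR list. That is 10.8% of the 37 genes, against 1.01% of all genes, with a limit of 100 that was chosen after the ranks were known. Without those 4 the median was 1.17.

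**Figure D3:**
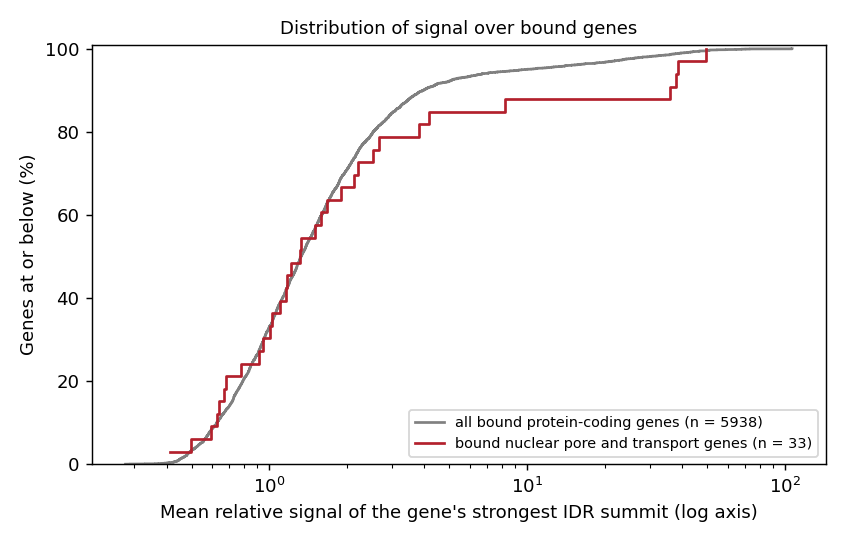
Cumulative share of bound genes (percent) by mean relative signal of the strongest IDR summit (log axis), for the 33 bound nuclear pore and transport genes and for all bound protein-coding genes with a matched replicate summit. The lines run close together up to about the upper quartile, 2.53 for the group, and part where emb, Rcc1, Kap-alpha3 and Nup205 lie.

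Replicates gave much the same level for most genes. Over the 28 bound genes matched in all 3 replicates, the coefficient of variation ran from 3.58% at Nup358 to 33.4% at Nup153, with a median of 13.3%. Over all bound genes the median was 16.5%. The gap between Nup205, the lowest of the strong 4, and msk was far wider than the replicate spread of either, and so was the gap between msk and Nup37. Below Nup37, neighbours in the order mostly overlapped.

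Summits lay close to the starts and mostly upstream. The median position was 63 bp upstream of the nearest TSS, with quartiles 103 and 27 bp upstream, and over all bound genes it was 86 bp upstream. Of the 33 summits 29 (87.9%) were upstream, as were 89.6% over all bound genes, and 23 (69.7%) were within 100 bp of the TSS, beside 52.7%. The summits of the strongest 5 genes, emb, Rcc1, Kap-alpha3, Nup205 and msk, fell between 48 and 86 bp upstream.

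Most of the bound genes shared the peak with a neighbour that starts nearby on the opposite strand. Such a divergent neighbour had its TSS within 500 bp of the summit at 24 of 33 genes (72.7%), beside 54.0% of all bound genes. The arrangement was taken from the neighbour nearest to the summit, and no gene of the group had that neighbour in another arrangement. A further neighbour, as at Nup75, was not classified. The distance between both starts ran from 26 bp at Nup153 to 640 bp at Nup58, with a median of 285 bp. At 20 of these 24 genes (83.3%) the summit fell between both starts, beside 85.4% over all bound genes with a divergent neighbour. It was nearer to the TSS of the nuclear pore or transport gene at 16 and nearer to the neighbour at 8. Over all bound genes with a shared start the summit was nearer to the gene itself at 1590, nearer to the neighbour at 1706 and at equal distance at 204. A pair with a common summit enters that count from both sides, which pulls the split towards equal, so it is no baseline for the group. The pore proteins split 8 to 8, and at the transport and mRNA export factors the summit was nearer to the listed gene at 8 of 8.

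A peak in a shared start cannot be assigned to either gene from these lists. For emb the partner was fy, a planar polarity gene, at 293 bp, and the summit was nearer to emb. For Kap-alpha3 it was Son, a gene for an RNA-binding protein, at 309 bp, with the summit nearer to Kap-alpha3. Nup205 started 155 bp from pico, and here the summit was nearer to pico. The partner of msk was Arp3, which encodes an actin nucleator subunit, at 277 bp, and that of Nup37 was the ribosomal protein gene RpS27, at 144 bp, where the summit was nearer to RpS27. Rcc1 was the one gene of the strongest 6 with no partner. Nup37 (chr3R:25247658-25249100) and Nup358 (chr3R:25249348-25258672) lie one behind the other on the plus strand, with a separate peak at each start. The peak at Nup37 is the one shared with RpS27, and the peak at Nup358 had no partner.

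Genes with a shared start were somewhat stronger in the group as in the genome. The median relative signal was 1.54 over the 24 genes with a shared start and 1.10 over the 9 with a start of their own, and over all bound genes the corresponding medians were 1.50 and 1.12. Within the group the gap lay in the transport and mRNA export factors, with medians of 2.44 (n = 8) and 0.873 (n = 4). The pore proteins had 1.25 (n = 16) and 1.22 (n = 5). The 4 factors with their own start were Rcc1, Pen, Cse1 and Nxt1, with means from 0.496 to 38.5, so their median is poorly fixed. High values occurred in both arrangements, at emb with a shared start and at Rcc1 with its own.

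**Figure D4:**
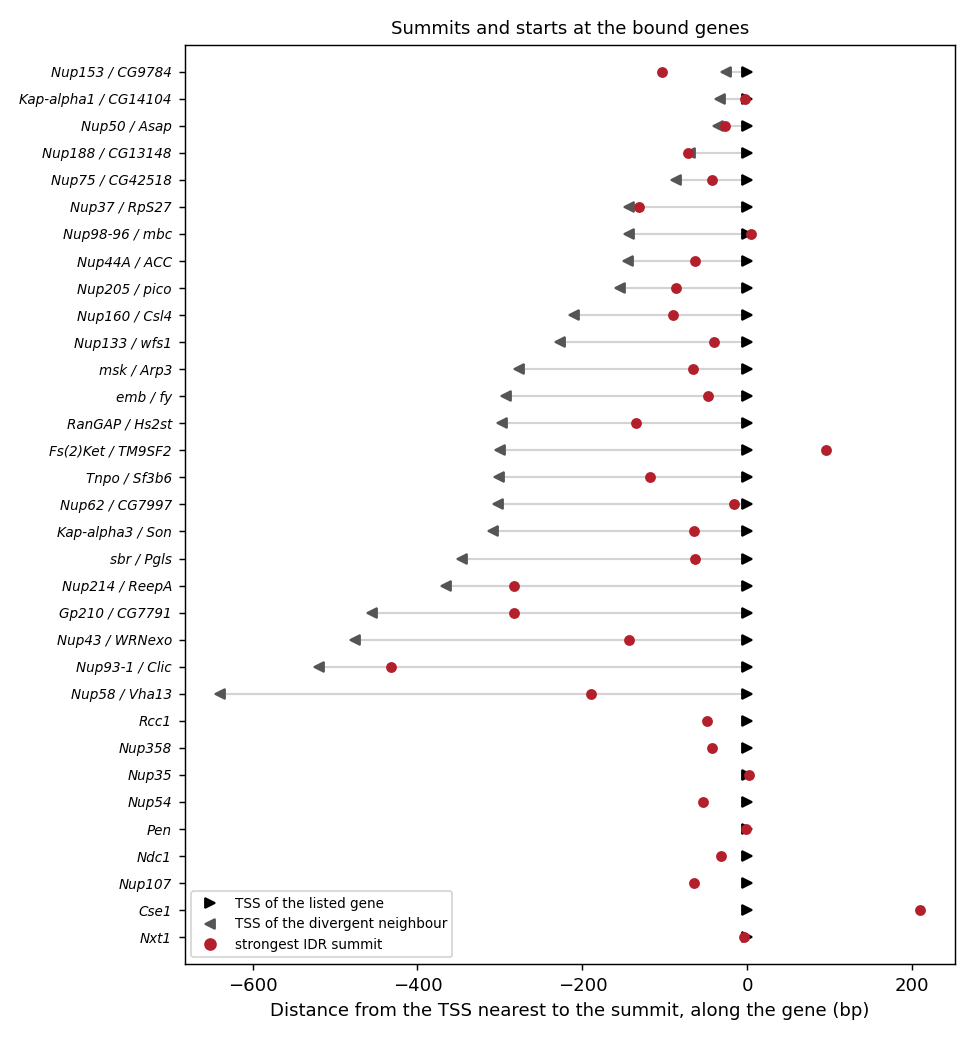
Position (bp along the gene) of the strongest IDR summit, red, relative to the TSS nearest to it, black, and to the TSS of the divergent neighbour, grey, for the 33 bound genes. Genes with a partner are ordered by the distance between both starts, from 26 bp at Nup153 to 640 bp at Nup58, and the 9 genes without a partner are at the bottom.

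A second IDR summit lay in the window of 8 genes (24.2%), as it did at 24.0% of all bound genes. These were Nup37, Nup50, sbr, Gp210, Kap-alpha1, Nup153, Nup93-1 and Nup214, and the second summit was 200 to 219 bp from the strongest. Second summits were weaker by pooled signal, by the choice of the strongest. None of the 4 strongest genes had a second summit.

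Outside the window, a single further IDR summit lay in the bodies of these genes. It belonged to a peak at chr2L:20735220-20735782 in an intron of Fs(2)Ket, 603 bp past the TSS nearest to it and thus just beyond the limit, with a relative signal of 6.27 ± 0.326 (SD, n = 3) and rank 279. This was several times the value at the start of the same gene.

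Short motifs of fly promoters were counted within 100 bp of the summits on both strands. The motifs were TATCGATA, the binding sequence of the factors DREF and BEAF-32, GGTCACAC, a core promoter element of housekeeping genes, CAGCTG, an E-box, GCAACNCT, TATAAA, the TATA box, and GAGAGAG, the sequence bound by GAGA factor. A match is a description of the letters in this window and no evidence of a factor there.

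TATCGATA was present at 5 of 33 genes (15.2%), against 18.4% of 4182 promoter summits and 7.84% of all gene starts. GGTCACAC was present at 4 (12.1%), against 10.6% and 6.76%, and CAGCTG at 7 (21.2%), against 16.3% and 13.8%. These shares were close to those of promoter summits as a whole. TATAAA was present at 11 (33.3%), against 32.0% and 29.2%, and GAGAGAG at none, against 2.37% and 3.69%.

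GCAACNCT was present at 4 genes (12.1%), Rcc1, Nup37, RanGAP and Nup35, against 9.76% of promoter summits and 5.04% of starts. It was commoner at the 132 promoter summits with a relative signal of 20 or more, of which 40.9% held it. Of the 4 genes of the group at that level only Rcc1 did. The windows of emb, Kap-alpha3 and Nup205 held none of the 6 motifs, and 13 of the 33 windows held none.

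The 5-mer CCCTG, added after the sequences were seen, was within 100 bp of the summit at 8 of 33 genes (24.2%), against 19.1% of promoter summits and 15.8% of starts. Of the 5 genes at 5 or more it was present at 4, the exception being Nup205, and of the 28 weaker genes at 4 (14.3%). Those 5 genes are among the printed sequences from which the 5-mer was picked, so that choice favoured the difference. The limit of 5 also differs from the 20 used next. At 20 or more in the group it was present at emb, Rcc1 and Kap-alpha3 and absent at Nup205. Over all promoter summits at 20 or more it was present at 56.8%, and below that level at 17.9%. A narrower count took the whole 5-mer inside 30 bp on each side, which leaves out the match centred at 30 bp in Kap-alpha3. It was then present at 3 of 33 genes (9.09%), emb, Rcc1 and msk, against 8.11% of promoter summits and 5.47% of starts. The share of the group was thus close to that of promoter summits as a whole. At promoter summits of 20 or more it was 37.9%, beside 7.14% of the others. The strong promoter summits include those of the group, so these shares are not separate from it.

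A wider list of transport and mRNA export genes outside the group, such as further nucleoporins, karyopherins, the THO complex and cap-binding proteins, was examined in the same way, with 37 of 38 symbols found in the annotation. Of these 28 (75.7%) were bound, against 42.6% of all genes, and 24 were held by all 3 replicates. Their median relative signal was 1.04, below the group's 1.31, and none reached 5. Presence was thus common here as well, without the strong peaks.

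The strongest of the wider list was Tnpo-SR, a receptor for SR splicing proteins, with 3.33, 2.85 and 3.67, a mean of 3.28 ± 0.416 (SD, n = 3). Rae1, an mRNA export factor at the pore, measured 2.68, 2.52 and 2.97, a mean of 2.72 ± 0.227 (SD, n = 3). Ars2, a cap-complex protein, measured 2.88, 2.85 and 2.40, a mean of 2.71 ± 0.268 (SD, n = 3). Replicates of these genes overlapped. Hel25E, the export helicase UAP56, measured 2.73, 2.36 and 2.97, a mean of 2.69 ± 0.306 (SD, n = 3), and overlapped both. Elys and Ranbp21 share 1 start and 1 peak, so they are not separate observations.

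Unbound in the wider list were Impbeta11, Ipo9, Ranbp16, Sec13, alphaKap4, ebo, tho2, thoc6 and xmas. Sec13, a component of the Y complex in other organisms and also of the COPII coat, was thus unbound, while the 8 genes of that complex in the group were all bound. Its strongest summits measured 0.509, 0.638 and 0.235 in the relaxed lists.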

How the data were processed

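Peak lists on the dm6 build were used as deposited. The authors called peaks per replicate and on pooled replicates and selected an IDR list. None of the caller, the aligner and the IDR cut-off is given in the sources used here. Per peak, the deposited signal is the caller's own value, so it was ranked within a list or divided by a median of that list. The deposited −log10 q-value was not used in a test. Fragments were 200 to 800 bp, per the labels' protocols.

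TSSs came from Ensembl release 115, sequence from RefSeq on the same assembly, and coordinates are 1-based. Counting used Python 3.11.15, pandas 2.3.3, numpy 2.4.6 and pysam 0.24.0, checked on simulated lists. With 1 group no test was made: counts stand beside those of all genes.

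Replicate values are given for the 15 strongest and 3 weakest bound genes, the unbound genes with a weaker summit, and the 4 strongest of the wider list. Megator, Sec13, the second summits of sbr, Nup93-1, Nup214 and Nup153, and the CCCTG 5-mer were described after their values were seen. The genes and lists were chosen with earlier results of these data known. Alternatives changed windows, match distance, list, scaling and replicates. The dm3 lists were not used here.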

Additional observations from a re-analysis of the deposited data

How the results depend on the processing

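The number of bound genes ran from 23 of 37, in the part of the IDR list above its median signal, to 37 in the pooled list, and in each alternative run the share lay above that of all genes. Leaving out each replicate gave 27 to 30, with 36.3% to 37.7% of all genes. These runs keep IDR peaks held by both other replicates, so they are a stricter filter. The wider list fell to 14 of 37 in the stronger part of the IDR list, where 29.4% of all genes were bound, so most of its excess over all genes was gone there. The median relative signal was 1.28 to 1.42 when each replicate was left out, beside 1.32 to 1.34 over all bound genes. It was 1.13 when divided by the median of promoter peaks, beside 1.14, and 1.17 with the summit nearest to a TSS, beside 1.24. Without the 4 strongest genes, a setting chosen after seeing the data, it was also 1.17. Summits were at a median of -48 bp from the outermost TSS, and at -47 bp with the summits of replicate 1. With 200 bp on each side, TATCGATA was present at 8 genes (24.2%, beside 22.3% of promoter summits). GGTCACAC was at 9 (27.3%, beside 15.8%), CAGCTG at 11 (33.3%, beside 27.3%), TATAAA at 20 (60.6%, beside 53.5%) and GAGAGAG at 1 (3.03%, beside 5.64%). With 50 bp, GCAACNCT was present at 1 (3.03%, beside 6.46% of promoter summits) and TATAAA at 5 (15.2%, beside 16.9%). No value changed sign. No paired analysis was possible because there is only 1 group. Signal at weak peaks is limited by a depth that the lists do not give.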
